A study of Mus musculus with 3 samples.

Results

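The genes that code for inhibitors of the cyclin-dependent kinases (CDKs) were followed across the cell types of the Eed-deleted mouse cerebellum. They are Cdkn1a, Cdkn1b, Cdkn2a, Cdkn2b, Cdkn2c and Cdkn2d, chosen by symbol from the 16181 genes of the count tables, and all 6 were present. The tables came from Drop-seq, which captures the 3′ end of messenger RNA from single cells with a barcode per cell and a unique molecular identifier (UMI) per molecule. The 3 libraries were each from the cerebellum of 1 Math1-Cre/Eed fl/fl mouse (Eed cKO) at postnatal day 7 (P7), with no treatment. In these mice Cre is driven by the Math1 (Atoh1) promoter, which is active in cerebellar granule neuron progenitors (CGNPs), so Eed, a core subunit of Polycomb Repressive Complex-2 (PRC2), is deleted in the CGNP lineage and not expected to be deleted elsewhere; the mice were on a C57BL/6 background. Libraries of another genotype were not analysed here, so each comparison was between cell types of the same 3 mice, and Eed deletion cannot be told apart from cell type.

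After filtering, 2373 cells with 3081202 UMIs remained, 918, 547 and 908 in mice 1 to 3, with a median of 919.5, 857 and 1408 UMIs per cell, and no barcode was shared between libraries. The cells were grouped by transcriptome with the 6 inhibitors, the cyclins, Mki67 and Top2a held out, and the 15 groups were named from markers. Of them, 3 were proliferating CGNP-like (646 cells, each with Sfrp1, and with Atoh1 and Mcm genes in 2 of them and Cenpf, Tpx2 and Birc5 in the mitotic 1) and 2 were differentiating CGNP/CGN-like (534 cells, both with Neurod1, Nhlh1 and Mab21l2), CGNs being the granule neurons that CGNPs become. A myoid-like group (78 cells) carried muscle genes such as Myog and Actc1, the first at 3590, 5146 and 4128 UMIs per 1000000 UMIs of the group (CPM) in the 3 mice. Outside the CGNP lineage were interneuron-like (343), interneuron progenitor-like (190), oligodendrocyte-like (120), astrocyte-like (111), endothelial-like (52), myeloid-like (49), vascular fibroblast-like (47) and pericyte-like (30) cells. A group of 173 cells led by Syt4, Pcp4 and Calb1 met no naming rule and entered no test. Eed itself stood at 30.6, 14.0 and 21.8 CPM in CGNP/CGN-like cells and at 68.8, 79.4 and 45.4 CPM in cells outside the lineage, from 35 and 66 UMIs. All 3 mice were lower in the lineage, although 3′ tags need not read the deleted exons. Hbb-bs, a globin of red blood cells, led 1 of the proliferating groups and ranged from 233 to 7429 CPM there across mice.

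CDK inhibitors restrain the cell cycle, above all before S phase. The CIP/KIP family (Cdkn1a codes for p21, Cdkn1b for p27) binds cyclin-CDK complexes broadly, whereas the INK4 family (Cdkn2a for p16, Cdkn2b for p15, Cdkn2c for p18, Cdkn2d for p19) binds CDK4 and CDK6 and keeps them from the D cyclins, so that the pocket proteins stay active and E2F factors stay silent. Cdkn2a also encodes ARF from a separate first exon in another reading frame, which stabilises p53, and Cdkn1a is a classic p53 target. Cdkn2a is a textbook target of PRC2-mediated repression, and Cdkn1b is known as an inhibitor that rises as CGNPs leave the cell cycle.

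Positions are from GENCODE M21 on GRCm38 (mm10), the build of the deposited data. Cdkn2a lies on chromosome 4 at 89274471-89294653 on the minus strand, with Cdkn2b 11645 bases beyond its start at 89306299-89311039 on the same strand. Cdkn2c is also on chromosome 4, at 109660876-109667189 on the minus strand. Cdkn1a is on chromosome 17 at 29090976-29100727 on the plus strand, where AC167363.2 overlaps it on the other strand (how the counting used strand is not given in the sources used here), Cdkn1b on chromosome 6 at 134920401-134925513 on the plus strand and Cdkn2d on chromosome 9 at 21288410-21291407 on the minus strand. The 2 annotated Cdkn2a transcripts start at 89282192, the start used for p16, and at 89294653, the start used for ARF, and they end in the same last exon. They share 575 exonic bases of 852 and 895, so 3′ UMIs could not tell p16 messages from ARF messages, and each Cdkn2a value below covers both.

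The bases just before 4 start sites are shown because they are the DNA at which these genes are switched on, and because the pair of Cdkn2a starts differed widely in CpG content, a sequence feature that PRC2-bound promoters often share. Sequences are RefSeq, GRCm38.p6, on the gene's own strand and cut at the first exonic base, with each CG dinucleotide in capitals.
Cdkn2a, ARF start, chr4:89294654-89294869, minus strand: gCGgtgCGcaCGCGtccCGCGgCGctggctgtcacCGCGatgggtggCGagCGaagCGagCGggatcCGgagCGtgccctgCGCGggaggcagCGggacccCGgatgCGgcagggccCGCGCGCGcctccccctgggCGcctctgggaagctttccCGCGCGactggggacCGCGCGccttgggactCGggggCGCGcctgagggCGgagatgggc
Cdkn2a, p16 start, chr4:89282193-89282442, minus strand: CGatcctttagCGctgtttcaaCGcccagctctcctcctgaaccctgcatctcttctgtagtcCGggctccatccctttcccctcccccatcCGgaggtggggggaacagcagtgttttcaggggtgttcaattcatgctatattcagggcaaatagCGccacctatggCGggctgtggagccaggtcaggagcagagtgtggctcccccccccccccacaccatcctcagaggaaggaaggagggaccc
Cdkn1a, downstream start, chr17:29093519-29093768, plus strand: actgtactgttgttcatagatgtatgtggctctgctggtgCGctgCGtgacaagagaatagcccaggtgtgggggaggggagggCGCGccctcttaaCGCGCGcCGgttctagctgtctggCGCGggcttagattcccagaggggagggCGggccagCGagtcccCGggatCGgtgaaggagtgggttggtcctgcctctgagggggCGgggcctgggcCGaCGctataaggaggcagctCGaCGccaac
Cdkn1b, chr6:134920151-134920400, plus strand: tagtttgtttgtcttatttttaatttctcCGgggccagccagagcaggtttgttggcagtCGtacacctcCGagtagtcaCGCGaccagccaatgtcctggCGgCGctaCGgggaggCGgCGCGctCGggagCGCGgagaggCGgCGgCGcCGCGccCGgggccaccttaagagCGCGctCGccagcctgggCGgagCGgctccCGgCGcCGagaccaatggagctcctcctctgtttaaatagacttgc
In the 250 bases before the RefSeq start, the ARF side of Cdkn2a held 40 CpGs and the p16 side 7. As many CpGs as on the ARF side were found in 1.31% of 32851 RefSeq promoter windows of that length, against 46.3% for the p16 side, 19.7% for the downstream start of Cdkn1a with 19, 81.2% for its upstream start with 2, 33.5% for Cdkn2b with 12 and 7.61% for Cdkn1b with 28, and the median window held 6. The letters GGGCGG, searched on both strands, occurred 2 times in the ARF window, 2 times in the downstream Cdkn1a window, 1 time in the Cdkn1b window and not in the p16, upstream Cdkn1a or Cdkn2b windows. They were present in 32.7% of all windows.

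CPM is taken over all UMIs of a cell group in 1 mouse and is not compared between genes. Among all 2373 cells, Cdkn1b gave 766 UMIs in 561 cells, Cdkn1a 743 in 290, Cdkn2a 368 in 265, Cdkn2d 262 in 211, Cdkn2c 150 in 123 and Cdkn2b 36 in 32. Each inhibitor had its own distribution over the cell types, with Cdkn1a concentrated in myoid-like cells, Cdkn2a in CGNP/CGN-like cells and Cdkn1b spread over all types.

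**Figure D1:**
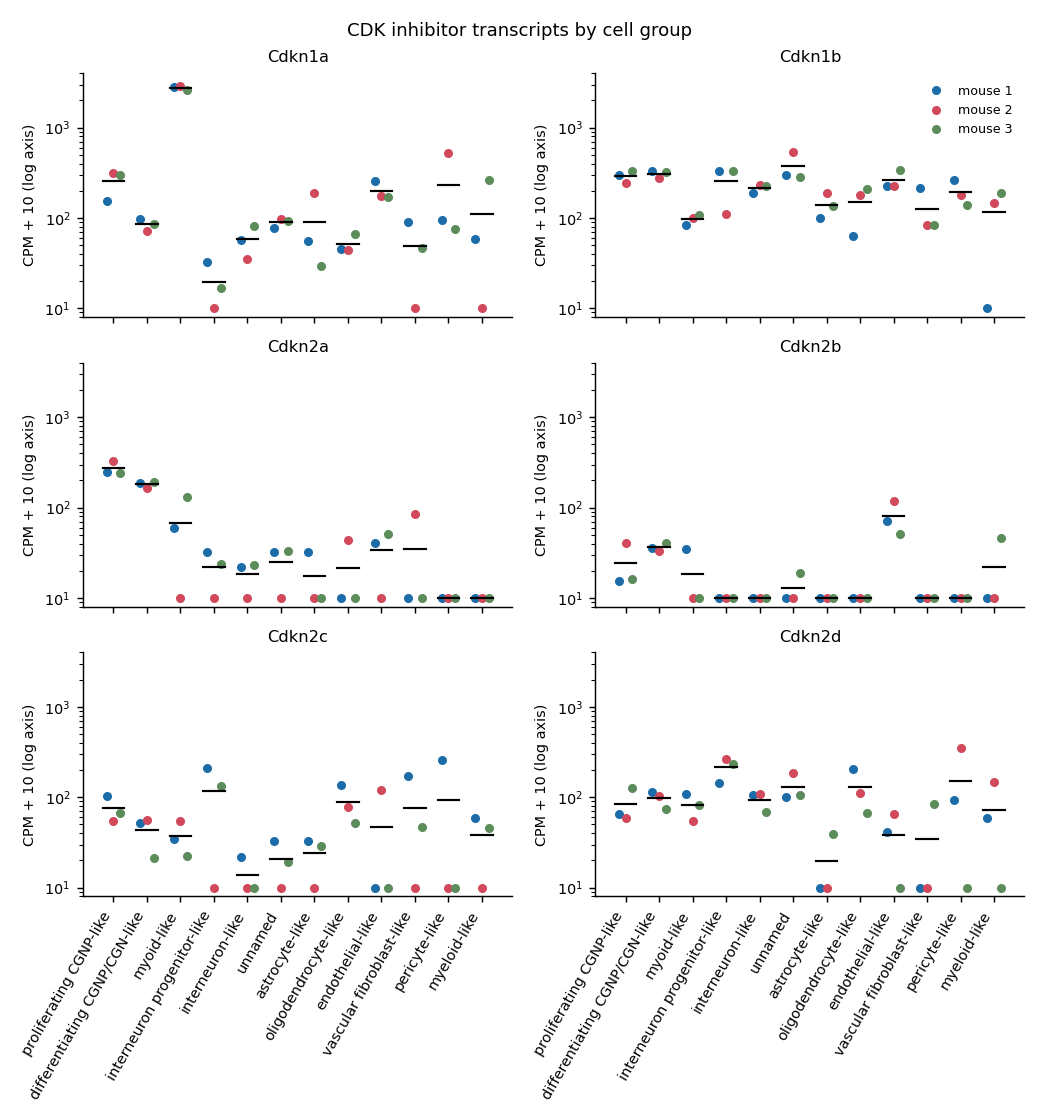
Level of each CDK inhibitor in every cell group, as CPM with 10 added on a log axis; points are the 3 mice and lines their means. Cdkn1a in myoid-like cells (2594 to 2844 CPM) stands apart from every other group, Cdkn2a is highest in the proliferating and differentiating CGNP/CGN-like groups, and Cdkn2b is at 0 UMIs in 6 groups.

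Cdkn1a was at 2803, 2844 and 2594 CPM in myoid-like cells of mice 1 to 3. In proliferating CGNP-like cells it was at 143.7, 303.3 and 290.2 CPM, and in differentiating CGNP/CGN-like cells at 88.0, 62.2 and 75.4 CPM. The 3 ranges did not overlap. Myoid-like cells, 78 of 2373, held 52.5% of all Cdkn1a UMIs. Pericyte-like cells (5 UMIs) and endothelial-like cells, at 247, 164 and 163 CPM from 15 UMIs, overlapped the range of proliferating CGNP-like cells. The lowest level was in interneuron progenitor-like cells, at 22.4, 0 and 6.84 CPM from 3 UMIs. The groups ranked between endothelial-like and interneuron progenitor-like each overlapped the next in their ranges over mice.

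A Cdkn1a UMI was present in 86.8% ± 5.6 (SD, n = 3 mice) of myoid-like cells, 20.1% ± 8.4 of proliferating CGNP-like cells, 5.88% ± 1.86 of differentiating CGNP/CGN-like cells and 5.27% ± 0.98 of the outside cells. Cells with more UMIs are more likely to show any gene, and the median per cell was 1324.5 UMIs in myoid-like cells, 1151.5 in proliferating, 906.5 in differentiating and 966.5 in outside cells. At an equal depth of 500 UMIs per cell, reached by thinning, they were 66.8% in myoid-like, 9.43% in proliferating and 3.51% in differentiating cells. Of the 68 myoid-like cells with Cdkn1a, 12 had 1 UMI and 47 had 3 or more, up to 22. Of the 118 such proliferating CGNP-like cells, 66 had 1 UMI and 25 had 3 or more, up to 9. Per 100 UMIs of Actc1, Tnnt2, Myl1 and Myog together there were 17.0 Cdkn1a UMIs in myoid-like cells, 434 in proliferating and 125 in differentiating CGNP/CGN-like cells, and 27.3 in interneuron progenitor-like cells, from 3 Cdkn1a UMIs. The part of RNA released from myoid-like cells in the Cdkn1a UMIs of other groups was not tested.

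Cdkn1b was detected in every group. It was at 287.4, 232.9 and 320.4 CPM in proliferating CGNP-like cells and at 320.8, 264.3 and 316.8 CPM in differentiating CGNP/CGN-like cells. These ranges overlapped almost fully. The unnamed Syt4, Pcp4 and Calb1 group had the highest mean, from 292.5, 528.3 and 273.8 CPM. Myoid-like cells had the lowest, from 73.8, 90.3 and 97.4 CPM. All 12 groups overlapped their neighbour in rank.

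Cdkn2a was at 237.6, 320.8 and 229.7 CPM in proliferating CGNP-like cells and at 175.9, 155.5 and 181.0 CPM in differentiating CGNP/CGN-like cells, and these ranges did not overlap. CGNP/CGN-like cells together held 91.6% of its UMIs. Myoid-like cells came next, at 49.2, 0 and 121.8 CPM from 12 UMIs. In all cells outside the lineage Cdkn2a was at 13.8, 13.2 and 9.38 CPM from 13 UMIs, with 4 UMIs each in interneuron-like and interneuron progenitor-like cells and none in myeloid-like and pericyte-like cells. A UMI was present in 20.7% ± 4.4 of CGNP/CGN-like cells (median depth 1030.5 UMIs) and in 1.26% ± 0.15 of outside cells, and after thinning to 500 UMIs in 9.70% and 0.45%. The source of the UMIs in outside cells, which free RNA in the suspension can add to, was not tested.

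Cdkn2b was scarce, with 27 of its 36 UMIs in CGNP/CGN-like cells. There it was at 12.6, 28.1 and 16.8 CPM, and outside the lineage at 5.50, 13.2 and 3.13 CPM from 6 UMIs, and the ranges overlapped. Endothelial-like cells gave the highest level, 61.8, 109.4 and 40.7 CPM, but from 5 UMIs. It passed the filter on low counts in none of the comparisons and was not tested. In interneuron progenitor-like cells its 0 UMIs allow up to 33.6, 152 and 20.5 CPM in the 3 mice when each library is taken alone (3 counts per library).

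Cdkn2c had its highest mean in interneuron progenitor-like cells, at 201.6 CPM in mouse 1 and 123.1 CPM in mouse 3, whereas mouse 2, with 22 such cells, had none. Pericyte-like cells of mouse 1 were above that, at 251.6 CPM from 3 UMIs. In proliferating CGNP-like cells it was at 94.0, 44.0 and 57.4 CPM and in differentiating CGNP/CGN-like cells at 41.4, 46.6 and 11.3 CPM. These ranges overlapped. Oligodendrocyte-like cells had 125.4, 67.9 and 42.5 CPM, and interneuron-like cells 1 UMI in all.

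Cdkn2d also had its highest mean in interneuron progenitor-like cells, at 134.4, 252.8 and 225.7 CPM, with oligodendrocyte-like cells of mouse 1 (197.0 CPM) and pericyte-like cells of mouse 2 (341.8 CPM, 2 UMIs) inside or above that range. The highest values of the unnamed group (176.1 CPM) and of myeloid-like cells (138.0 CPM, 2 UMIs over all mice) were also inside it. Interneuron-like cells had 94.7, 99.6 and 58.2 CPM, below every progenitor value. In proliferating CGNP-like cells it was at 55.3, 48.3 and 117.9 CPM and in differentiating CGNP/CGN-like cells at 103.5, 93.3 and 64.1 CPM, which overlapped. Astrocyte-like cells had the lowest mean, from 0, 0 and 28.8 CPM.

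The comparison between the CGNP lineage and the other named groups, myoid-like cells left out, asked which inhibitors stood higher where Eed is deleted than in neighbouring cells of the same cerebella. Cdkn2a and Cdkn1a were higher in the lineage. Cdkn2a rose from 13.8, 13.2 and 9.38 CPM outside to 216.2, 261.1 and 208.1 CPM, a log2 fold change of 4.29 (SE 0.31, adjusted p = 5.6e-08 by edgeR's quasi-likelihood test with Benjamini-Hochberg adjustment). Cdkn1a rose from 60.5, 72.8 and 56.3 CPM to 124.3, 216.2 and 194.6 CPM, a log2 fold change of 1.53 (SE 0.27, adjusted p = 6.0e-04). For both genes every lineage value was above every outside value, and Cdkn2a, with 13 UMIs outside, entered the test through the lineage cells. Mki67 was higher in the lineage as well, at 612 ± 102 CPM against 340 ± 51.2 CPM (SD, n = 3 mice, log2 fold change 0.83, adjusted p = 0.0067), and Top2a differed by 0.14 (adjusted p = 0.73). The part of dividing cells in the inhibitor differences was not tested. Cdkn1b was at 299.0, 244.3 and 318.8 CPM in the lineage and at 181.6, 172.0 and 217.4 CPM outside. Its groups did not overlap either, but the difference of 0.57 (SE 0.20) missed the threshold (adjusted p = 0.077) and passed it with the mouse as a block (0.59, SE 0.13, adjusted p = 0.0022) and at clustering resolution 0.4 (0.70, adjusted p = 0.028), where only proliferating cells made up the lineage group. Cdkn2c (-0.10, SE 0.40, adjusted p = 0.92) and Cdkn2d (-0.26, SE 0.25, adjusted p = 0.60) did not pass the test and their groups overlapped. Of 5 tested inhibitors 2 were called, where 12.7% of all 7621 genes tested were called in either direction, and with the block 3 of 5, where 20.9% of the genes were called. Because Cdkn2a entered through the lineage cells, nothing is read from these counts.

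The dividing groups of both lineages were also set side by side, a choice made after the levels were seen. It is given as a description, and no test result is read from it. The groups were not matched for division. Top2a was at 1188 ± 162 CPM in proliferating CGNP-like and 2220 ± 181 CPM in interneuron progenitor-like cells (SD, n = 3 mice). Mki67 was at 952 ± 132 and 979 ± 86.2 CPM. The part of this in the values below was not tested. Cdkn1a had 217 UMIs in proliferating CGNP-like cells and 3 in interneuron progenitor-like cells, and the ratio of pooled CPM was 20.1 (95% counting interval 6.78 to 98.1). Cdkn2a had 235 and 4 UMIs, a ratio of 16.3 (6.28 to 60.3). For both genes the 3 mice of one group were above the 3 of the other. Cdkn2d was the other way, at 55.3, 48.3 and 117.9 CPM in proliferating CGNP-like and 134.4, 252.8 and 225.7 CPM in interneuron progenitor-like cells, again without overlap. Cdkn1b and Cdkn2c overlapped.

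The study places myoid cells in the Atoh1 lineage as an aberrant fate of CGNPs, and they were set against CGNP/CGN-like cells to ask which inhibitors differ between these fates. Cdkn1a was higher in myoid-like cells, whereas Cdkn1b and Cdkn2a were lower. The level of Cdkn1a, 2594 to 2844 CPM against 124 to 216 CPM, gave a log2 fold change of 3.97 (SE 0.26, adjusted p = 3.0e-15). The level of Cdkn1b, 73.8 to 97.4 CPM against 244 to 319 CPM, gave -1.65 (SE 0.39, adjusted p = 0.0016). Neither gene's groups overlapped. Cdkn2a, at 0 to 122 CPM against 208 to 261 CPM, gave -1.45 (SE 0.44, adjusted p = 0.014). That call rests on 12 UMIs in 78 cells and was lost among cells with at least 1000 UMIs (adjusted p = 0.055) and without mouse 1 (adjusted p = 0.070) or mouse 2 (-1.06, adjusted p = 0.14), and without mouse 3 the value was -2.88. Cdkn2d differed by 0.01 (SE 0.52, adjusted p = 1.0), and Cdkn2b and Cdkn2c were too low to be tested. Of 4 tested inhibitors 3 were called, against 20.4% of 4535 genes, and the median log2 fold change of all genes tested was -0.14. Cdkn2a passed the filter on low counts through the CGNP/CGN-like cells, where it is high, so nothing is read from this count. Cdkn1c, the remaining CIP/KIP gene, was also higher in myoid-like cells, at 12799 ± 1335 CPM against 260 ± 55.9 CPM (SD, n = 3 mice). Of the 68 myoid-like cells with a Cdkn1a UMI, 10 also had Cdkn1b, 8 Cdkn2a, 8 Cdkn2d and 3 Cdkn2c.

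The step from proliferating to differentiating cells of the CGNP lineage is the exit from the cell cycle. Cdkn1a was lower in the differentiating cells, and none of the 5 tested inhibitors was higher. The Cdkn1a fall from 144 to 303 CPM down to 62.2 to 88.0 CPM was -1.66 on the log2 scale (SE 0.31, adjusted p = 4.9e-04), in all 3 mice. It was -3.34 among cells with at least 1000 UMIs, where a single differentiating cluster of 161 cells, led by Cntn2 and Hoxa9, was named, so that depth and the make-up of the group changed together. Cdkn2a was also lower in each mouse, but its difference of -0.59 (SE 0.23) missed the threshold (adjusted p = 0.060) and passed it with the mouse as a block (-0.55, SE 0.19, adjusted p = 0.011). It likewise passed among cells with at least 1000 UMIs, without the upper limits on UMIs, with no gene held out of clustering, and with Scrublet doublets removed, where it was -1.13 (adjusted p = 0.0018). The cells were clustered again in each of these, and with doublets removed 457 differentiating and 735 proliferating cells were named, against 534 and 646, so doublets and regrouped cells cannot be told apart there. Cdkn2c differed by -1.16 (SE 0.47, adjusted p = 0.078) and passed with the block (-1.14, SE 0.42, adjusted p = 0.018) and with no filter on low counts (-1.23, adjusted p = 0.043). Cdkn1b (0.11, SE 0.21, adjusted p = 0.76) and Cdkn2d (0.17, SE 0.37, adjusted p = 0.78) did not pass the test. Of 5 tested inhibitors 1 was called, where 27.4% of 5090 genes were called, and with the block 3 of 5, where 39.0% of the genes were called. Hbb-bs was at 1520, 255 and 2183 CPM in the proliferating and 921, 855 and 98.1 CPM in the differentiating cells, and its part in these differences was not tested.

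**Figure D2:**
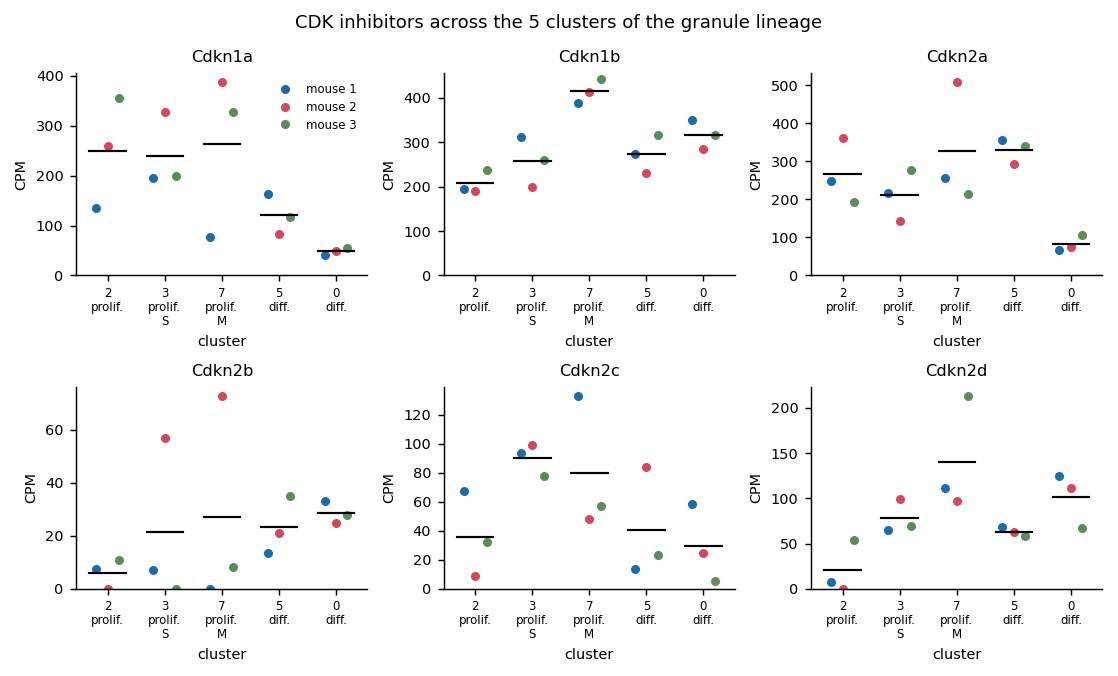
CPM of each inhibitor in the 5 clusters of the CGNP lineage, 3 proliferating (S, led by S-phase genes; M, led by mitotic genes) and 2 differentiating; points are the 3 mice and lines their means. Cdkn2a in differentiating cluster 5 (294 to 355 CPM) is above every value of differentiating cluster 0 (66.6 to 106 CPM), and Cdkn1b in cluster 7 (389 to 442 CPM) is above every value of the other 4 clusters.

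The 5 clusters behind these 2 groups differed among themselves, which is given as a description without a test. The differentiating cells held a Cdkn2a-rich cluster 5 (184 cells, led by Mab21l2 and Chodl) and a Cdkn2a-poor cluster 0 (350 cells, led by Cntn2 and Adcyap1). Cdkn2a was at 355.3, 293.6 and 340.2 CPM in the first and at 66.6, 74.1 and 105.6 CPM in the other. The proliferating clusters ran from 142 to 509 CPM. Cdkn1a followed the same split, at 164.0, 83.9 and 117.3 CPM in cluster 5 and at 41.6, 49.4 and 55.6 CPM in cluster 0. The ranges did not overlap for either gene.

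Among proliferating cells, cluster 7 was led by mitotic genes such as Ube2c, Cenpa and Cenpf. There Cdkn1b was at 388.7, 412.1 and 442.1 CPM, against 194.7, 189.8 and 236.5 CPM in cluster 2, which was led by Hbb-bs, Atoh1 and Cdca7. Cdkn2d was at 111.1, 97.0 and 212.8 CPM in cluster 7 and at 7.49, 0 and 53.8 CPM in cluster 2. Neither gene's ranges overlapped. Cdkn2c was at 94.0, 99.5 and 77.8 CPM in cluster 3, led by S-phase genes such as Tyms, Rrm2 and Tk1, above its 67.4, 8.63 and 32.3 CPM in cluster 2. Cdkn1a was at 134.8, 258.8 and 354.8 CPM in cluster 2, 195.2, 326.9 and 198.9 CPM in cluster 3 and 77.7, 387.9 and 327.4 CPM in cluster 7, which all overlapped.

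The interneuron lineage, in which Math1-Cre is not expected to act, made the same step from dividing to postmitotic cells. Cdkn2d was lower in interneuron-like than in interneuron progenitor-like cells (58.2 to 99.6 against 134 to 253 CPM), with a log2 fold change of -1.37 (SE 0.42, adjusted p = 0.021). It passed the filter on low counts through the progenitors, where it is high. The call was lost without mouse 2 (adjusted p = 0.055), with no filter on low counts (adjusted p = 0.10) and by the DESeq2 Wald test (adjusted p = 0.16). Cdkn1b, at 177.6, 224.0 and 214.8 CPM in interneuron-like cells and at 324.9, 101.1 and 321.5 CPM in progenitors, differed by -0.53 (SE 0.33, adjusted p = 0.32). Mice 1 and 3 were lower in interneuron-like cells and mouse 2 higher. Because of how Cdkn2d entered the test, nothing is read from the 1 of 2 tested inhibitors called. The share over 2073 genes was 18.0%. The other inhibitors were too low to be tested. In UMIs, Cdkn2c had 36 in progenitors and 1 in interneuron-like cells, a ratio of pooled CPM of 49.1 (95% counting interval 8.27 to 1992), and Cdkn1a had 3 and 21, a ratio of 5.13 in favour of interneuron-like cells (1.53 to 26.9).

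Whether exit changed an inhibitor differently in the 2 lineages was tested as an interaction. Cdkn1a passed, with a difference of -3.88 on the log2 scale (SE 0.82, adjusted p = 0.0094), being lower in the differentiating than the proliferating cells of the CGNP lineage and at 47.4, 24.9 and 71.6 CPM in interneuron-like cells against 22.4, 0 and 6.84 CPM in their progenitors. It rests on the 3 progenitor UMIs and was lost without mouse 2 (-3.65, adjusted p = 0.14) or mouse 3 (-2.54, adjusted p = 0.59). Cdkn2c gave 4.12 (SE 1.25, adjusted p = 0.13) and passed with the mouse as a block (4.04, adjusted p = 0.018), while resting on 1 UMI in interneuron-like cells. Cdkn1b (0.63, adjusted p = 0.67), Cdkn2a (-0.14, adjusted p = 0.99) and Cdkn2d (1.55, SE 0.56, adjusted p = 0.26) did not pass. Cdkn1a passed the filter on low counts here through the CGNP lineage, where it is high, and was too low to be tested in the interneuron lineage alone, so nothing is read from the 1 of 5 called. The share over 4837 genes was 1.18%, or 2.96% with the block.

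**Figure D3:**
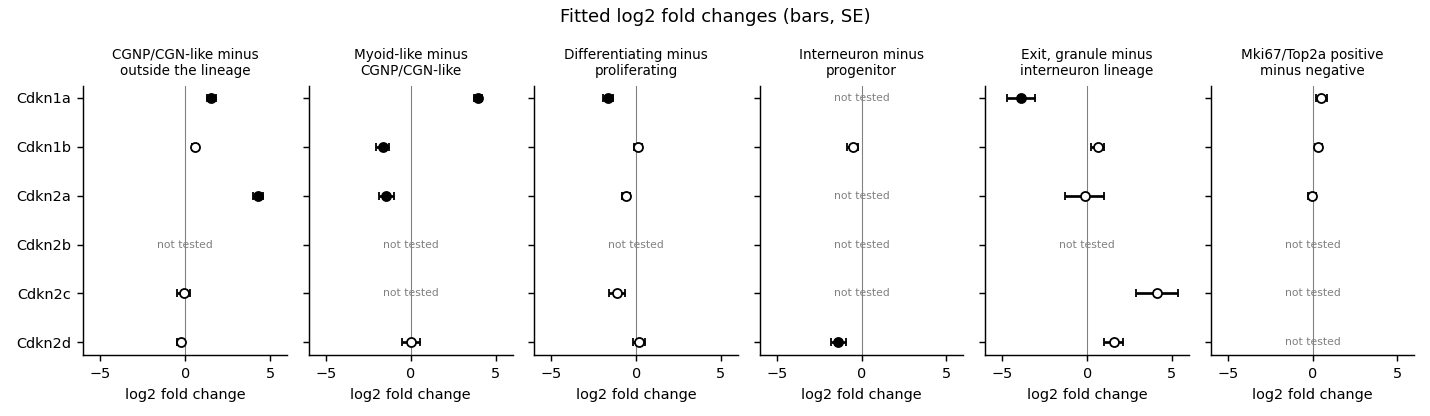
Fitted log2 fold change of each inhibitor in the 6 comparisons, with bars for the SE and filled points for an adjusted p under 0.05 in the fit without the mouse as a block. Cdkn2a is filled at 4.29 in the lineage comparison and Cdkn1a at 3.97 in myoid-like cells, and no point is filled in the comparison by Mki67 or Top2a.

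Within proliferating CGNP-like cells, Mki67, a proliferation antigen, and Top2a, the topoisomerase of dividing cells, mark cells in S, G2 and M phase. At least 1 UMI of either was found in 386 of 646 cells. Such cells were deeper, with a median of 1413 UMIs against 891.5 in the 260 others. No inhibitor passed the test on UMIs summed per mouse. Cdkn1a differed by 0.51 (SE 0.34, adjusted p = 0.75), Cdkn1b by 0.32 (SE 0.25, adjusted p = 0.82) and Cdkn2a by -0.05 (SE 0.25, adjusted p = 1.0). This was 0 of 3 tested, with 0 at an unadjusted p under 0.05 and 0 by the DESeq2 Wald test, where 3.08% of 2729 genes were called. Cdkn2c was at 119.2, 64.3 and 61.2 CPM in positive and 29.5, 11.4 and 46.8 CPM in negative cells, from 55 and 8 UMIs. Its groups did not overlap, but it was too low to be tested, as was Cdkn2d with 61 and 9 UMIs.

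**Figure D4:**
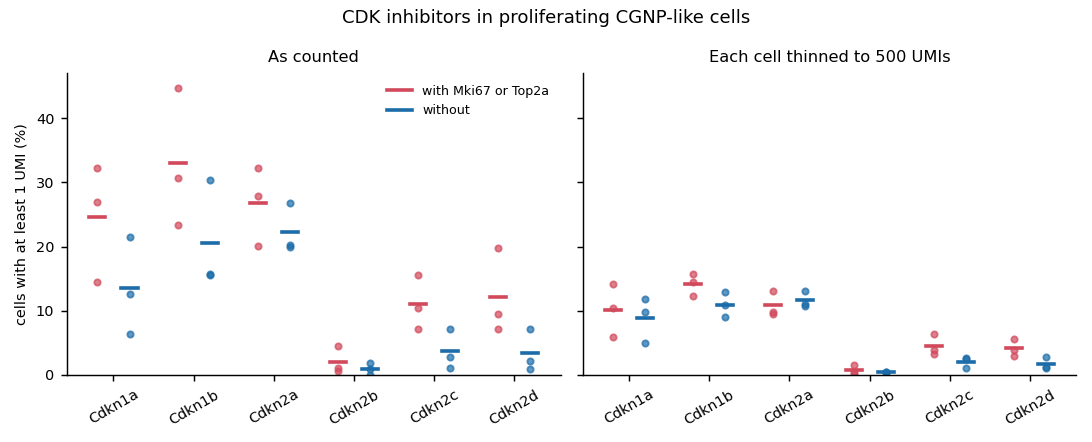
Percent of proliferating CGNP-like cells with at least 1 UMI of each inhibitor, in cells with Mki67 or Top2a and in cells without, as counted (left) and with each cell thinned to 500 UMIs (right); points are the 3 mice and lines their means. The mean gap for Cdkn1a is 11.1 percentage points as counted and 1.31 after thinning. Mki67 and Top2a are thinned too, so the sets of cells with and without them differ between the panels.

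In single cells, the share with an inhibitor was larger among Mki67 or Top2a positive cells for every inhibitor. The gaps were smaller after thinning. Thinning also removed UMIs of Mki67 and Top2a, so cells positive as counted could fall among the negative ones. The parts of depth and of these changed sets of cells in the smaller gaps were not tested. Cdkn1a was found in 22.5% of positive cells (87) and 11.9% of negative cells (31), a mean difference per mouse of 11.1 ± 3.2 percentage points (SD, n = 3). Thinned to 500 UMIs, the shares were 9.41% and 8.20% and the difference 1.31 ± 2.94, higher in 2 of 3 mice. Cdkn2a was found in 25.4% and 21.5% of cells, and after thinning in 10.7% and 11.7%, a difference of -0.81 ± 0.83. For both genes the thinned difference was within the spread over mice. Cdkn1b (32.1% and 18.8%), Cdkn2c (11.9% and 3.08%) and Cdkn2d (11.4% and 2.69%) kept a gap after thinning in all 3 mice. It was 3.23 ± 0.42 points for Cdkn1b, 2.41 ± 1.54 for Cdkn2c and 2.45 ± 0.67 for Cdkn2d. Cdkn2b was found in 7 and 2 cells.

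Inhibitors were also found together. Both genes of a pair were thinned, so the sets of cells with and without a gene also changed after thinning. Of the 154 proliferating CGNP-like cells with Cdkn2a, 31.8% (49) had Cdkn1a, against 14.0% (69) of the 492 without, a mean difference of 17.3 ± 9.4 points. After thinning the shares were 13.0% and 8.2%, with a difference of 4.90 ± 6.2 that was positive in 2 of 3 mice, so it was within the spread over mice. Of the 51 cells with Cdkn2d, 25.5% (13) had Cdkn2c, against 6.9% (41) of 595, and thinned shares of 13.2% and 3.1% gave a difference of 8.7 ± 8.2, positive in all 3 mice. Cells with Cdkn2d had a median of 2315 UMIs against 1110. Cdkn1b was in 45.1% of cells with Cdkn2d and 25.2% of the others, but in 12.1% and 12.3% after thinning.

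**Figure D5:**
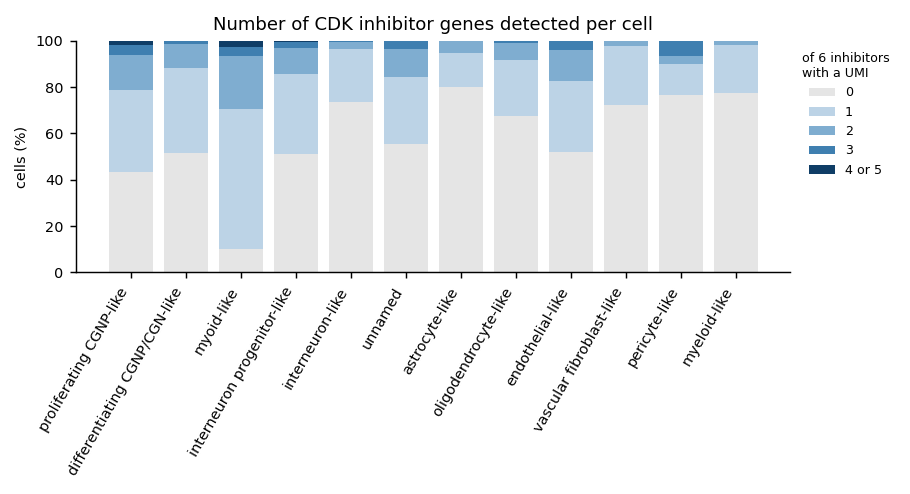
Share of cells in each group by how many of the 6 inhibitor genes had a UMI, pooled over the 3 mice; bars add to 100%. Myoid-like cells have the fewest cells with none (8 of 78), and interneuron-like cells are mostly without (253 of 343).

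Counted per cell, 1301 of 2373 cells had no inhibitor UMI, 752 had 1 inhibitor, 249 had 2, 56 had 3 and 15 had 4 or 5. At least 1 was found in 89.8% ± 3.7 of myoid-like cells, 58.1% ± 9.7 of proliferating CGNP-like cells and 24.9% ± 3.9 of interneuron-like cells (SD, n = 3 mice). Thinned to 500 UMIs these were 70.9%, 33.5% and 15.3%. The order was the same at equal depth. Of the 12 proliferating CGNP-like cells with 4 or more inhibitors none had more than 5, and 47 of 78 myoid-like cells had exactly 1.

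The other cell cycle genes were taken from lists that cover the partners and targets of the inhibitors. From proliferating to differentiating CGNP/CGN-like cells, where 27.4% of all genes tested were called, 3 of 4 tested genes of the D cyclin list were lower, among them Ccnd2 (-1.15) and Ccnd1 (-1.63), the cyclins that INK4 proteins keep from CDK4, while Cdk4 differed by -0.44 (adjusted p = 0.092). Both tested E and A cyclins, Ccna2 (-3.62) and Ccne2 (-4.19), were lower, as were all 3 mitotic genes, Cdk1 (-4.48), Ccnb1 (-4.85) and Ccnb2 (-3.25). Of the parts of the ligase that degrades p27, 2 of 5 were lower, Skp2 and Cks1b. None of 6 tested genes of the p53 list passed in either direction, and their median log2 fold change was 0.22. The median was -1.31 for the D cyclin list and -0.01 over all genes tested. Mki67 and Top2a fell too. Proliferation genes had named the groups, so the falls of these 2 genes, the cyclins and Cdk1 follow in part from the naming.

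In myoid-like against CGNP/CGN-like cells the D cyclin list split, with Ccnd3 higher and Ccnd2 (-3.02), Ccnd1 (-3.64) and Cdk4 (-0.96) lower. Both tested E and A cyclins and 2 of 3 mitotic genes were lower. Ccna2 had no UMI in myoid-like cells. Of 7 tested genes of the p53 list 2 were higher, Btg2 (0.98), an antiproliferative gene, and Pmaip1, a pro-apoptotic gene, and none was lower, with a median of 0.85 over the 7, where 20.4% of all genes tested were called. Against cells outside the lineage, CGNP/CGN-like cells had higher Ccnd1 (1.69), Ccnb2 (1.12) and, of 8 tested p53 list genes, Pmaip1. Of all genes tested there, 12.7% were called. None of the tested pocket protein (3), E2F (3) or ligase (5) genes passed there. In the interneuron lineage, beside 18.0% of all genes tested, Ccnd2, 1 E or A cyclin, 2 mitotic genes and Cks1b were lower in the interneuron-like cells, and Cdkn1c was higher (2.51). By Mki67 or Top2a, Ccna2 (2.83), Cdk1 (3.52), Ccnb1 (4.00) and Ccnb2 (1.70) were higher in positive cells and no other tested gene of these lists passed, beside 3.08% of all genes tested.

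Genes whose mean level over the 11 named groups was most like that of an inhibitor were ranked by Pearson's r of log2(CPM + 20) among 5912 genes, as a description in which the points share 3 libraries. For Cdkn1a they were Myog (0.93), the muscle transcription factor, Rps18 (0.91), a ribosomal protein gene, and Derl1 (0.89). For Cdkn1b they included Cerkl (0.91) and Ywhaq (0.90). For Cdkn2a they were Cadps2 (0.93), Islr2 (0.92) and Hsd11b2 (0.92). For Cdkn2c they were Ctps (0.81), Serp1 (0.81) and Tk1 (0.81), thymidine kinase of S phase, and for Cdkn2d they were Ubqln1 (0.91), Stard7 (0.90) and Auh (0.89). Cdkn2b had too few UMIs to be ranked.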

How the data were processed

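Cells from 1 side of the sagittally cut cerebellum of each of 3 Eed cKO mice were dissociated with papain and captured by Drop-seq. The deposited values were UMI counts per gene and cell, 1 table per mouse, which the authors made with STAR and mm10 per the submitters' processing notes (versions not given in the sources used here). The thresholds of the study (at least 500 UMIs and 200 genes, at most 4 SD above the median, at most 10% mitochondrial UMIs), with the median and SD taken within each mouse as a choice made here, kept 2373 of 3481 barcodes. Scrublet marked 14 doublets, which stayed in. Cells were clustered with Seurat 5.3.0 (SCTransform, 15 components, resolution 0.8) with 47 listed genes held out. Clusters were named from at least 3 markers by a rule set after they were seen, so groups can differ from those of the study.

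UMIs were summed per mouse and cell group and tested with edgeR 4.0.16 (TMM, filterByExpr, quasi-likelihood F test, two-sided, Benjamini-Hochberg over all genes tested, threshold 0.05). The fit was tested on simulated data. Groups came from the same 3 animals, which pairs them (correlation of deviations 0.07 to 0.40), and the blocked value is printed where it changes a call. Thinned shares are the expected detection at 500 UMIs per cell, with the gene or label that splits the cells thinned as well. Intervals and floors (3 counts) cover counting error only. All 6 inhibitors were named whatever their values, with the 3 genes most like each that had at least 100 UMIs, of which 1 is not reported here. Of the other lists, up to 3 genes with the most UMIs were named, and Ccnd3, Skp2, Cks1b and Pmaip1 after their values were seen. The members and lists were chosen with earlier results of these data known. Alternatives were DESeq2 1.42.0, other cell filters and resolutions, no filter on low counts, the block and leaving out each mouse.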

Additional observations from a re-analysis of the deposited data

Results flagged for a closer look

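The difference between the lineages in the change of Cdkn1a at cell cycle exit was picked out because the effect of one contrast differed between groups by the interaction test. It was -3.88 on the log2 scale (SE 0.82, adjusted p = 0.0094 by edgeR's quasi-likelihood test), and Cdkn1a was lower in differentiating than proliferating CGNP/CGN-like cells in 3 of 3 mice. The interneuron progenitor-like side held 3 Cdkn1a UMIs, Cdkn1a was too low to be tested in the interneuron lineage alone, and it passed the filter on low counts through the CGNP lineage, so the difference carries little weight. Over the alternatives the value ran from -6.25 to -2.54 and the adjusted p from 6.4e-05 to 0.59.

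The 1108 barcodes that failed the cell filters were in no comparison and held 611849 UMIs, and each inhibitor had UMIs among them. There were 169 UMIs of Cdkn1a, 118 of Cdkn1b, 36 of Cdkn2a, 5 of Cdkn2b, 18 of Cdkn2c and 52 of Cdkn2d. In CPM these were 276 for Cdkn1a, 193 for Cdkn1b, 58.8 for Cdkn2a, 8.17 for Cdkn2b, 29.4 for Cdkn2c and 85.0 for Cdkn2d. No control libraries were analysed here, and the limit that a count of 0 allows is 3 UMIs, which each value passed. Where these UMIs came from was not tested.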

How the results depend on the processing

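No call turned its direction under an alternative. Calls for Cdkn1a and Cdkn2a against cells outside the lineage, Cdkn1a and Cdkn1b in myoid-like cells and Cdkn1a at exit in the CGNP lineage passed under every alternative that could be run. With the mouse as a replicate block, genes called numbered 1589 against 968 in the lineage comparison, 143 against 57 in the interaction and 164 against 84 by Mki67 or Top2a, and inhibitors lower at exit in the CGNP lineage numbered 3 against 1 and higher in the interaction 1 against 0; beyond the calls printed beside the results, the block changed no other call of an inhibitor. With no filter on low counts, 1604 genes were called in the lineage comparison and 131 by Mki67 or Top2a, and 2 inhibitors, Cdkn1a and Cdkn2c, were lower at exit in the CGNP lineage, while 2, Cdkn1a and Cdkn2a, were lower there with at least 1000 UMIs per cell, no upper limit, Scrublet doublets removed or no gene held out. With at least 1000 UMIs per cell, 586 genes were called in the lineage comparison and 135 in the interneuron comparison (373 in the fit reported above), 1 inhibitor was lower in myoid-like cells and 0 were lower in interneuron-like cells, where Cdkn2d was too low to be tested. The DESeq2 Wald test called 221 genes and 0 inhibitors in the interneuron comparison. At resolution 0.4, 10 genes were called by Mki67 or Top2a.

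Leaving out each mouse in turn gave 561 to 790 genes called in the lineage comparison, 532 to 858 in myoid-like cells, 927 to 1087 at exit in the CGNP lineage, 195 to 394 in the interneuron comparison, 13 to 26 in the interaction and 45 to 67 by Mki67 or Top2a. Inhibitors lower numbered 1 to 2 in myoid-like cells, 0 to 1 in interneuron-like cells (0 without mouse 3, where Cdkn2d was too low to be tested) and 0 to 1 in the interaction. Thinned to 500 UMIs, the differences by Mki67 or Top2a were 1.31 percentage points for Cdkn1a, 3.23 for Cdkn1b, -0.81 for Cdkn2a, 2.41 for Cdkn2c and 2.45 for Cdkn2d, and that for Cdkn1a by Cdkn2a was 4.90; the sign for Cdkn2a turned. Except for the fewer UMIs and changed sets of cells under thinning and the fewer cells or mice, the cause of these changes was not tested. At resolution 0.4 no cluster was named differentiating CGNP/CGN-like, so exit in the CGNP lineage and the interaction could not be run. The depth, a median of 1032 UMIs per cell, limits Cdkn2b in all groups and Cdkn1a, Cdkn2a and Cdkn2c in the interneuron lineage.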
